A study of Mus musculus with 8 samples.

Results

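The growth factor and receptor genes described here are 9 of the 53647 genes of the count table, found by symbol: Csf1, which encodes the macrophage growth factor M-CSF, and 8 genes for receptor chains of growth factors that act on myeloid cells, Csf1r, Csf2ra, Csf2rb, Csf2rb2, Il3ra, Csf3r, Flt3 and Kit. All 9 members passed the filter on low counts. The counts came from polyA RNA of sorted C57BL/6 mouse leukemia macrophages after 12 h in culture, in 8 libraries. In 4 libraries (Mac) the macrophages had been cultured alone, and in 4 (E-Mac, for MSC-educated macrophages) with mesenchymal stromal cells (MSC), fibroblast-like support cells. Both groups are labelled leukemia macrophages. The sources used here do not give the leukemia model, genotype, age, origin of the MSC, sort markers or growth factors in the medium. Whether the libraries are separate animals or cultures is not stated either, so p-values measure the spread between these samples alone, possibly a technical one.

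Growth factors keep myeloid cells alive and set which lineage they enter. M-CSF signals through the receptor tyrosine kinase CSF1R of monocytes and macrophages, while FLT3 and KIT are related kinases of progenitors, FLT3 also of dendritic cells and KIT also of mast cells. GM-CSF, IL-3 and IL-5 each bind an alpha chain of their own (CSF2RA, IL3RA, IL5RA), which pairs with a common beta chain encoded by Csf2rb. Mice carry a second beta chain gene, Csf2rb2, whose protein serves IL-3. G-CSF acts through CSF3R, the receptor of the neutrophil lineage. The beta chains and CSF3R have no kinase of their own and signal through JAK kinases and STAT factors.

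Library totals ran from 11646025 to 15740846 counts. Levels are given in CPM, a gene's counts as a share of its library's total, with the total scaled by the TMM factor that edgeR uses to align libraries, and differences as log2 fold changes, E-Mac over Mac, ± standard error, from edgeR's quasi-likelihood test with 4 libraries a group. A gene was called at a Benjamini-Hochberg adjusted p under 0.05 over the 13412 genes tested. Macrophage markers were present in both groups, with Mac and E-Mac means of 379 and 765 CPM for Adgre1 and of 222 and 652 CPM for Cd68. Of the 14 macrophage core markers 11 were called higher in E-Mac and 1, C1qa, lower (means of 90.1 and 45.5 CPM). C1qb and C1qc were not called. Together the 14 markers summed to 2594 to 2965 CPM in Mac and 6635 to 8919 in E-Mac. The 15 neutrophil and granulocyte markers summed to more, 32258 to 35909 CPM in Mac and 10096 to 16192 in E-Mac, so transcripts of the neutrophil lineage were abundant in cells labelled as macrophages. Eosinophil transcripts were present too, and the sum of 5 markers ran from 2042 to 2348 CPM over the Mac libraries. Over the E-Mac libraries this sum ran from 1781 to 2538 CPM, which overlaps, with 1 marker called higher and 3 lower. In such bulk samples fewer cells of a type and less RNA per cell cannot be told apart. The libraries E-Mac 2 and 4 stood apart from E-Mac 1 and 3: counts differed by a chi-square per degree of freedom of 21.4 to 37.1 between the 2 pairs, against 5.16 and 10.02 within them. Their 14 stromal markers summed to 295 and 315 CPM, against 47.9 and 37.1 in E-Mac 1 and 3 and 6.33 to 9.03 in Mac. The fold changes of the 9 genes and the ratios between them are given with and without E-Mac 2 and 4.

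Both beta chain genes and Csf1 rose between 3.10-fold and 5.39-fold in mean CPM, Flt3 fell to 0.181 and Kit to 0.488 of its Mac level, and Csf2ra and Csf3r fell slightly. No change was called for Csf1r and Il3ra. In all, 7 of the 9 members were called, 3 higher and 4 lower. Of all tested genes 58.3% were called, 29.5% higher and 28.8% lower. The members had a median absolute log2 fold change of 1.04 against 0.43 over all tested genes. The groups did not overlap in 6 members, higher in E-Mac for 3 and lower for 3, and in 53.9% of tested genes (26.7% higher, 27.2% lower). The share of calls among the members is therefore read against a comparison in which more tested genes differed than did not.

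**Figure D1:**
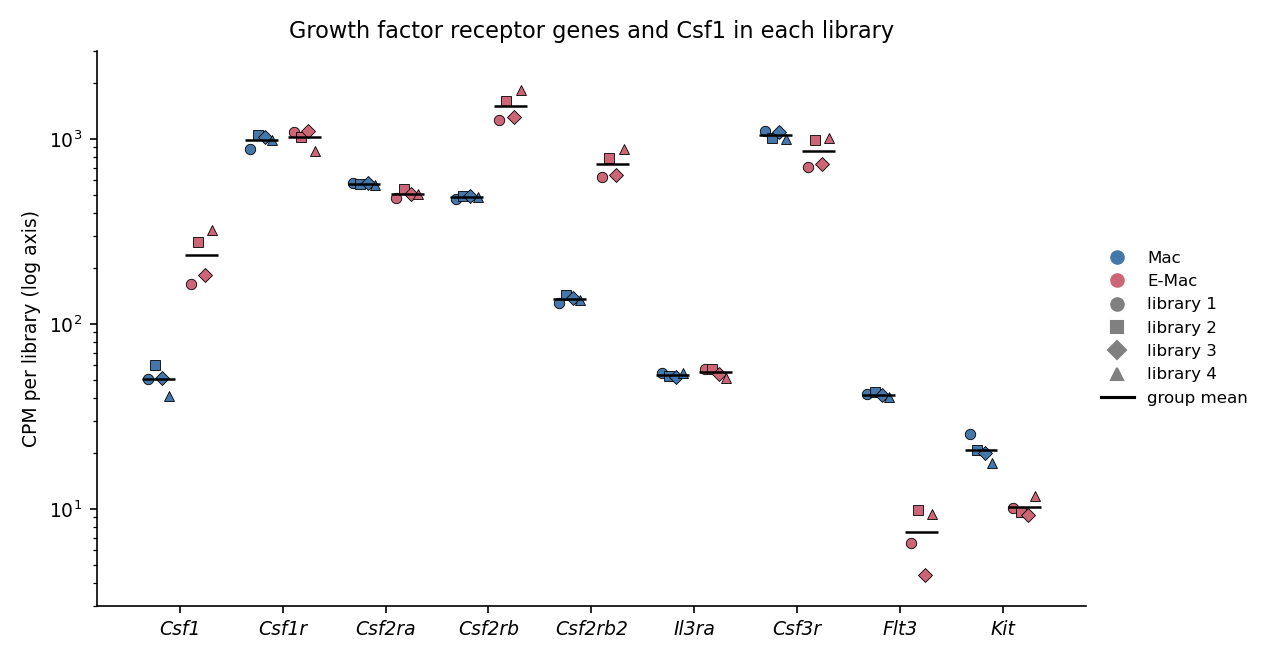
CPM of the 9 genes (log axis) in each of the 4 Mac and 4 E-Mac libraries, with 1 symbol per library number and a bar at the group mean. The Mac libraries lie close together for most genes, while E-Mac 2 and 4 lie above E-Mac 1 and 3 for Csf1, Csf2ra, Csf2rb, Csf2rb2, Csf3r and Flt3 and below them for Csf1r.

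**Figure D2:**
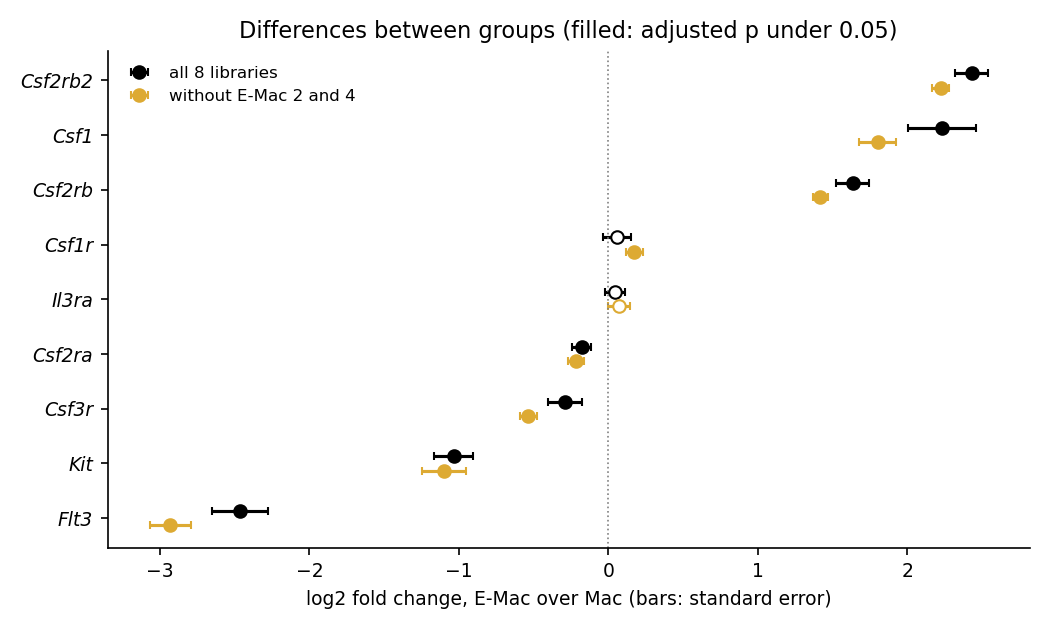
log2 fold change, E-Mac over Mac, with its standard error, for all 8 libraries (black) and without E-Mac 2 and 4 (yellow), filled where the adjusted p was under 0.05. The order runs from Flt3 at -2.46 to Csf2rb2 at 2.43, and Csf1r and Il3ra lie next to 0 with all libraries.

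The common beta chain gene Csf2rb became the most abundant of the 9 transcripts by CPM. In Mac 1 to 4 it stood at 474, 495, 490.3 and 484 CPM, and in E-Mac 1 to 4 at 1270.1, 1596, 1310.2 and 1851 CPM. Each E-Mac library was more than double any Mac library, and E-Mac 2 and 4 were the highest. The log2 fold change was 1.63 ± 0.11 (edgeR adjusted p = 4.25e-08), and 1.42 without E-Mac 2 and 4. The second beta chain gene Csf2rb2 rose further. It measured 129.65, 143, 137 and 135 CPM in Mac 1 to 4 and 624, 787, 641 and 885 CPM in E-Mac 1 to 4. Its libraries kept the same order within E-Mac as those of Csf2rb. The log2 fold change was 2.43 ± 0.11 (edgeR adjusted p = 8.30e-10, higher in 4 of 4 libraries), and 2.22 without E-Mac 2 and 4.

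These 2 genes are neighbours on mouse chromosome 15 (mm10, GENCODE M21, both protein coding). Csf2rb lies on the plus strand from 78325752 to 78353847 and Csf2rb2 on the minus strand from 78282507 to 78305721, so their start sites face away from each other across 20031 bases. Their coding sequences are 95.2% identical over 2628 aligned bases, with 66 gap positions left out. The longest run without a difference is 242 bases. The sources used here do not say how reads matching both genes were counted, so the split of reads between them is uncertain. Of all 50-base stretches of the Csf2rb transcript 18.9% also occur in the Csf2rb2 transcript, and of all 150-base stretches 3.58%. Among 90-base coding stretches without a gap in the alignment, the one in which the 2 genes differ most is shown. It is by such differences that a read can be assigned to one gene. Capitals mark the 16 bases that differ, and the stretches are bases 308 to 397 of the Csf2rb coding sequence and 311 to 400 of that of Csf2rb2.
Csf2rb: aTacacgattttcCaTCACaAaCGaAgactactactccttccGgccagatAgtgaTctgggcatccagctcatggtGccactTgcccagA
Csf2rb2: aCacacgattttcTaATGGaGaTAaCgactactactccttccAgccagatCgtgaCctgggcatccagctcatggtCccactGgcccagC

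The balance between the beta chains moved with little spread. Of the counts of both genes, Csf2rb2 made up 21.5, 22.4, 21.9 and 21.9% in the libraries Mac 1 to 4 and, in E-Mac 1 to 4, 33.0, 33.0, 32.9 and 32.4%. The groups did not overlap, and E-Mac 2 and 4 did not stand apart from E-Mac 1 and 3 together. As a ratio within each library, which no scaling factor touches, Csf2rb to Csf2rb2 was 3.46 to 3.66 in the Mac and 2.03 to 2.09 in the E-Mac libraries. The difference of the log2 ratios was -0.80 (exact two-sided permutation test, p = 0.0286, the smallest that 4 against 4 libraries allow, adjusted p = 0.0476 over the 5 ratios tested). It was -0.81 without E-Mac 2 and 4.

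The alpha chain genes did not follow the beta chains. Csf2ra, the GM-CSF-binding chain (chromosome 19, 61223957 to 61228429), stood at 577, 569, 578 and 567 CPM in Mac 1 to 4 and at 479, 539.6, 501 and 504 CPM in E-Mac 1 to 4. The groups did not overlap, and the Mac libraries spread by only 0.956% of their mean (SD). The fall was small, at -0.18 ± 0.06 (edgeR adjusted p = 0.0292). This call was lost with no filter on low counts and when any of the 4 Mac libraries, E-Mac 1 or E-Mac 3 was left out (adjusted p = 0.0598 to 0.0901 for these libraries, log2 fold change -0.15 to -0.18), and held when E-Mac 2 and 4 were left out (-0.22, adjusted p = 0.000745). By library totals alone the value was -0.32, where the median of all tested genes was -0.15. Il3ra, the IL-3-binding chain (chromosome 14, 14346275 to 14356011), was 54.0, 52.2, 51.5 and 54.6 CPM in Mac 1 to 4 and 57.4, 57.1, 53.5 and 50.9 CPM in E-Mac 1 to 4. Its groups overlapped, and the log2 fold change of 0.04 ± 0.07 did not pass (edgeR adjusted p = 0.611), with an approximate 95% interval of -0.09 to 0.18, and was 0.07 when E-Mac 2 and 4 were left out. Il5ra, the IL-5-binding chain and an eosinophil receptor, had Mac and E-Mac levels of 48.2 ± 4.64 and 53.1 ± 17.3 CPM (SD, n = 4 and 4) and did not pass (0.14 ± 0.20, edgeR adjusted p = 0.568). E-Mac 2 and 4 held its 2 highest values, 57.4 and 75.7 CPM, against 37.6 and 41.6 in E-Mac 1 and 3. With E-Mac 2 and 4 left out Il5ra was lower in E-Mac (-0.27, edgeR adjusted p = 0.0132). Among the eosinophil markers Prg2 fell from a mean of 1482 to 1001 CPM, and Ccr3 rose from 206 to 738 CPM. Like Csf2rb, Ccr3 was highest in E-Mac 4 (1101 CPM), followed by E-Mac 2 (829 CPM), and so was Siglecf. The other 3 of the 5 eosinophil markers had another order. Among the E-Mac libraries Prg2, Epx and Prg3 were lowest in E-Mac 2 (800, 112 and 30.7 CPM) and highest in E-Mac 3 (1214, 260 and 53.9 CPM). The part of eosinophils in the levels of Il5ra and the beta chain genes was not tested.

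The ratio of alpha to common beta chain counts therefore changed. There were 1.15 to 1.22 Csf2ra counts per Csf2rb count in the Mac libraries, against 0.272 to 0.383 in the E-Mac libraries, with no overlap. The difference of the log2 ratios was -1.80 (exact permutation test, two-sided, p = 0.0286, adjusted p = 0.0476 over 5 ratios), and -1.63 without E-Mac 2 and 4. Per base of exon, Csf2ra was 2.91 to 3.09 times Csf2rb in the Mac libraries and 0.690 to 0.970 times in the E-Mac libraries.

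**Figure D3:**
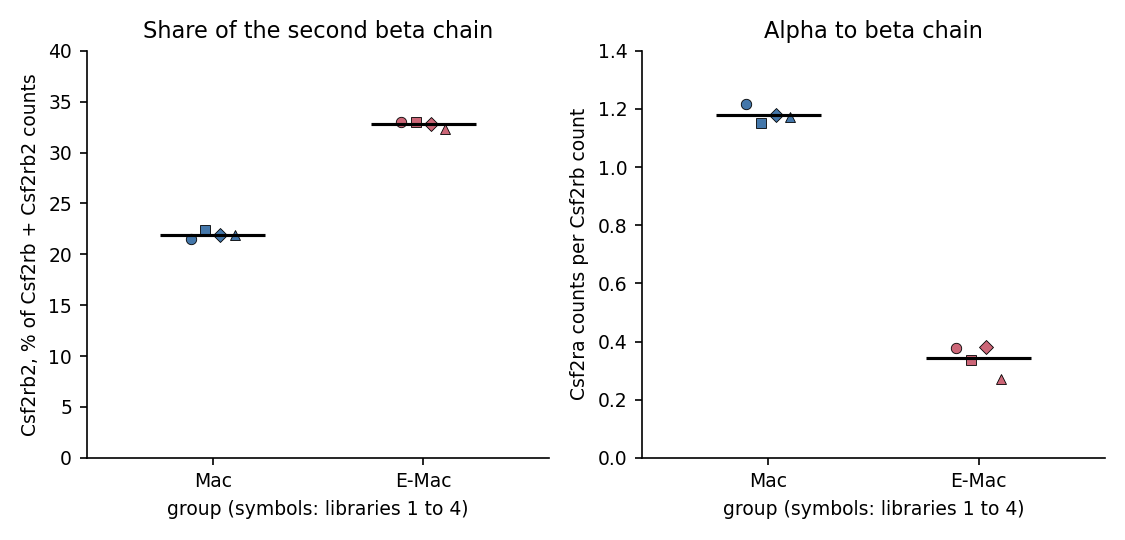
Left, Csf2rb2 as a percent of the counts of both beta chain genes. Right, Csf2ra counts per Csf2rb count. Symbols are the libraries 1 to 4 of each group and bars the group means; both axes start at 0. The groups do not overlap in either panel.

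Csf1, the ligand of CSF1R (chromosome 3, 107741048 to 107760469), rose while its receptor gene did not pass. Csf1 stood at 50.6, 59.9, 51.2 and 40.6 CPM in Mac 1 to 4 and at 165, 276, 184 and 323 CPM in E-Mac 1 to 4. The groups were far apart, with E-Mac 2 and 4 at 1.71 times the mean of E-Mac 1 and 3. The log2 fold change was 2.23 ± 0.23 (edgeR adjusted p = 3.06e-05, higher in 4 of 4 libraries). Stromal cells also make Csf1, and the stromal marker sum was higher in the same 2 libraries, with Col1a1 at 15.2 to 142 CPM over the E-Mac libraries. Its part in the level of Csf1 was not tested. With those libraries left out the log2 fold change of Csf1 was 1.80 (edgeR adjusted p = 3.26e-06), while the stromal sums of E-Mac 1 and 3 were still above every Mac library. Of the 14 stromal markers 5 rose and 0 fell among 7 tested, whereas the stromal genes Lum, Dcn and Lepr had at most 0.288 CPM in any E-Mac library.

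Csf1r, the receptor that defines the mononuclear phagocyte lineage, was among the most abundant transcripts of the 9 in both groups. It stood at 878, 1046, 1021 and 991 CPM in Mac 1 to 4 and at 1096, 1023, 1112 and 863 CPM in E-Mac 1 to 4. The groups overlapped, since E-Mac 4 was the lowest of all 8 libraries and E-Mac 3 the highest. The log2 fold change was 0.06 ± 0.09 (edgeR adjusted p = 0.621, approximate 95% interval -0.12 to 0.24). Without E-Mac 2 and 4 it was 0.17 and passed (adjusted p = 0.0126). Scaling by library totals alone gave -0.09, still above the median of all tested genes at that scaling, and upper-quartile factors gave -0.04. The macrophage core marker sum was 2.88 times as high in E-Mac. Csf1r equalled 33.8 to 35.8% of it in the Mac libraries but 12.5 to 13.01% in the E-Mac libraries. Lgals3 and Ctsd weighed most in that sum, with means that rose from 743 to 2122 CPM and from 341 to 1572 CPM. The markers did not move alike, since C1qa fell and C1qb and C1qc were not called. The 8 monocyte markers summed to 6319 to 6690 CPM in Mac and 5755 to 6618 in E-Mac, ranges that overlap, with 2 called higher and 5 lower. The part of these cells in the level of Csf1r was not tested. There were 0.0410 to 0.0577 Csf1 counts per Csf1r count in Mac against 0.150 to 0.374 in E-Mac, a log2 difference of 2.13 (exact two-sided permutation p = 0.0286, adjusted p = 0.0476 over 5 ratios) that was 1.63 without E-Mac 2 and 4.

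Csf3r, the G-CSF receptor (chromosome 4, 126024550 to 126044440), fell slightly and not in every library. The values were 1101, 1011, 1086 and 1004 CPM in Mac 1 to 4 and 709, 989, 733 and 1007 CPM in E-Mac 1 to 4. E-Mac 4 lay just above the lowest Mac library and E-Mac 2 just below it, while E-Mac 1 and 3 lay well below all Mac libraries. The log2 fold change was -0.29 ± 0.11 (edgeR adjusted p = 0.0422). The call was lost with RLE factors, with no filter on low counts, and without any 1 of the 4 Mac libraries, E-Mac 1 or E-Mac 3 (adjusted p = 0.0625 to 0.126, log2 fold change -0.20 to -0.31), while without E-Mac 2 and 4 the value was -0.54 (adjusted p = 1.81e-09). There were 0.966 to 1.25 Csf3r counts per Csf1r count in the Mac libraries. In E-Mac 1 to 4 the ratios were 0.647, 0.967, 0.660 and 1.17, so E-Mac 1 and 3 lay below every Mac library and E-Mac 2 and 4 within their range. Over all libraries the difference of the log2 ratios was -0.36 and did not pass (exact two-sided permutation p = 0.229, adjusted p = 0.229 over 5 ratios). It was -0.71 when E-Mac 2 and 4 were left out (exact permutation p = 0.133, the smallest that 4 against 2 libraries allow). For Csf2ra to Csf1r the difference was -0.23 (exact permutation p = 0.143, adjusted p = 0.179), and -0.39 without those libraries (p = 0.133). The summed granulocyte markers were lower in every E-Mac library than in any Mac library. The lowest sums were those of E-Mac 1 (10096 CPM) and E-Mac 3 (10616 CPM), while E-Mac 2 reached 16192 CPM and E-Mac 4 13787 CPM. The granulocyte marker sum in E-Mac was 0.368 of that in Mac, with 11 of 15 markers lower, against 0.818 for Csf3r. Relative to that sum Csf3r was 2.87 to 3.17% in the Mac and 6.11 to 7.30% in the E-Mac libraries, with no overlap. The list was not uniform: the granule gene Ngp went from a mean of 7785 to 1394.5 CPM, whereas the chemokine receptor gene Cxcr2 of mature neutrophils went from 295 to 439 CPM. Cxcr2 was 556 and 543 CPM in E-Mac 2 and 4 but 312 and 346 CPM in E-Mac 1 and 3, against 277 to 326 CPM in Mac, so the groups overlapped. Its log2 fold change was 0.58 (edgeR adjusted p = 0.0197) with all libraries and 0.16 (adjusted p = 0.0287) without E-Mac 2 and 4. The part of the granulocyte share in Csf3r was not tested.

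The progenitor receptors Flt3 and Kit, both on chromosome 5, fell to low levels. Flt3 (147330741 to 147400489) had 41.6, 42.8, 41.3 and 40.3 CPM in Mac 1 to 4 and 6.55, 9.83, 4.38 and 9.34 CPM in E-Mac 1 to 4, where the counts were 65 to 143. The groups were far apart, with E-Mac 2 and 4 above E-Mac 1 and 3. The log2 fold change was -2.46 ± 0.19 (edgeR adjusted p = 2.59e-07), and -2.93 without E-Mac 2 and 4. Kit (75574916 to 75656722) had 25.3, 20.7, 20.1 and 17.6 CPM in Mac 1 to 4 and 10.1, 9.63, 9.29 and 11.8 CPM in E-Mac 1 to 4. Its groups did not overlap, and E-Mac 2 and 4 did not stand apart from the other E-Mac libraries. Kit fell by 1.04 ± 0.13 on the log2 scale (edgeR adjusted p = 1.75e-05), and by 1.10 without E-Mac 2 and 4. Lists of dendritic cell markers and of mast cell and basophil markers moved too. The 8 dendritic cell markers summed to 92.6 to 95.1 CPM in the Mac and 39.6 to 66.1 CPM in the E-Mac libraries, with 4 lower and 2 higher, and Flt3 was 43.2 to 45.0% of that sum in the Mac and 10.7 to 17.0% in the E-Mac libraries. Among them Cd209a went from a mean of 15.5 to 0.168 CPM and Ccr7, a receptor of mature dendritic cells, from 0.805 to 31.3. The 9 mast cell and basophil markers summed to 362 to 398 CPM in Mac and 139.8 to 263 in E-Mac, with 6 lower and the mast cell proteases Tpsb2 and Mcpt4 at 0 counts in every library. Most of that sum was Hdc, with means of 248 CPM in Mac and 179 CPM in E-Mac, so it does not measure mast cells alone. Kit was 4.69 to 6.36% of that sum in the Mac and 3.67 to 7.25% in the E-Mac libraries, ranges that overlap. Stem and progenitor markers were mixed, with 3 higher and 2 lower among 6 tested: Ly6a and Cd34 rose to means of 213 and 21.5 CPM from 13.4 and 10.2, and Hlf and Meis1 fell to 0.962 and 3.58 CPM from 6.25 and 8.68. The part of these cells in the fall of Flt3 and Kit was not tested.

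Levels of different genes were compared per kilobase of annotated exon. In Mac the order was Csf3r (291 CPM per kb), Csf2ra (199), Csf1r (170.4), Csf2rb (66.7), Csf2rb2 (28.8), Il3ra (17.9), Csf1 (9.57), Flt3 (6.72) and Kit (2.35), and no neighbours in that order overlapped. In E-Mac the first 5 drew together, Csf3r at 238 ± 44.4 CPM per kb, Csf2rb at 207 ± 37.3, Csf1r at 177 ± 19.7, Csf2ra at 176 ± 8.73 and Csf2rb2 at 155 ± 26.2 (SD, n = 4), and each overlapped the next. Csf1 came to lie above Il3ra, at 44.9 against 18.4 CPM per kb, without overlap. Flt3 and Kit, at 1.22 and 1.15 CPM per kb, overlapped. These levels rest on the summed length of all annotated exons, which may exceed that of the transcripts present.

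**Figure D4:**
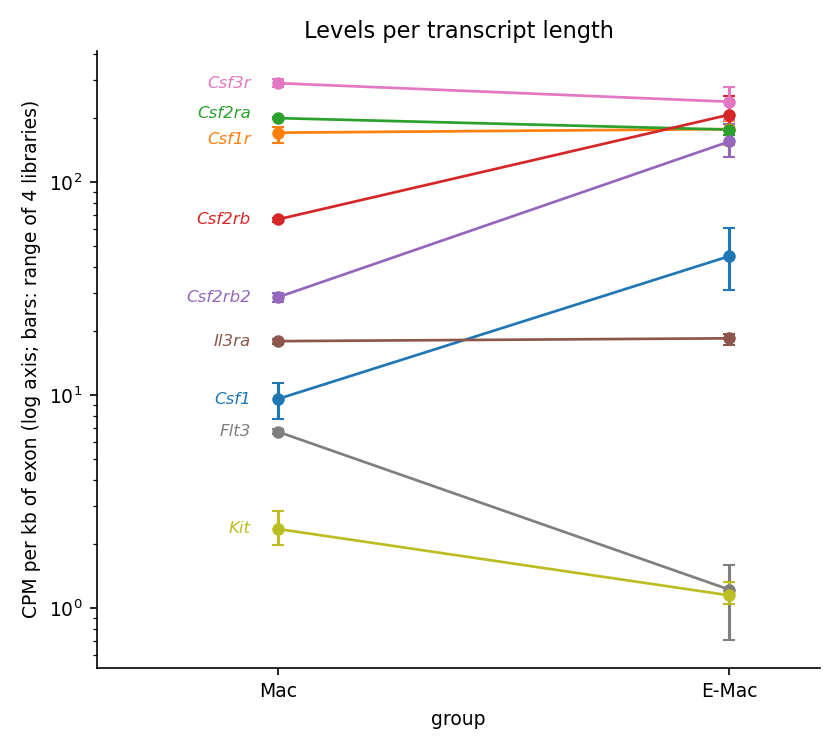
Mean CPM per kb of exon (log axis) of each gene in Mac and E-Mac, with bars from the lowest to the highest of 4 libraries. The 2 beta chain genes rise to the level of Csf2ra and Csf1r, Csf1 crosses Il3ra, and Flt3 falls to the level of Kit.

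Promoter windows were read from RefSeq (GRCm38.p6) for 7 of the 9 genes, as the 250 bases before the start site annotated there. For Csf2ra, Csf3r, Kit and Il3ra that start lies inside the GENCODE gene, so part of the window does too. The motifs searched, on both strands, were GAGGAA, the core bound by the myeloid factor PU.1, TTCNNNGAA, the STAT element, TGANTCA, the AP-1 element, and the interferon response element, GAAA followed after 2 bases by another GAAA. They occur in 23.3, 7.02, 6.75 and 2.98% of 32851 such windows. The PU.1 core was found in Csf2ra, Csf2rb2, Csf3r and Kit, and the STAT element in Csf2rb2, beginning 15 bases before its start. Neither the AP-1 nor the interferon element was found in these windows, and Csf1, Flt3 and Il3ra held none of the 4. The promoters of a beta chain gene that rose and of the alpha chain gene that fell are shown, with motif matches in capitals. That of Csf2rb2 is at chr15:78305722-78305971, minus strand, and that of Csf2ra at chr19:61228419-61228668, minus strand. In Csf2rb2 the first run of capitals is the PU.1 core on the other strand and the second the STAT element, and in Csf2ra the run of capitals is 2 PU.1 cores end to end. A match describes the letters and not a bound site.
Csf2rb2: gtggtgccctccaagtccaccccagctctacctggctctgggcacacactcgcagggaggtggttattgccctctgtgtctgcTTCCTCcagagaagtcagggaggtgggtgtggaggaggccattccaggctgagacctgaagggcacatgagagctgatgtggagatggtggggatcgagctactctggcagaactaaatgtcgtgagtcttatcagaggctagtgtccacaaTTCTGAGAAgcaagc
Csf2ra: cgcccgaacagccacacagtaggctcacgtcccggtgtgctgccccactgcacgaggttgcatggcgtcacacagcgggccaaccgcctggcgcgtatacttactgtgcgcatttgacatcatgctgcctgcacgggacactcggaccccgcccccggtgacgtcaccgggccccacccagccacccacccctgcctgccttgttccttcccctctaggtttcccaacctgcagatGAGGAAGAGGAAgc

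The other ligands of these receptors were scarce. Il3, Il34 and Thpo, the genes of IL-3, the second CSF1R ligand and thrombopoietin, had 0 counts in every library, and Il5 had 1 count in all. Csf2, the GM-CSF gene, had 4 counts over the Mac and 5 over the E-Mac libraries. Csf3, the G-CSF gene, had 0 counts in Mac and 2, 3, 9 and 6 counts in E-Mac 1 to 4. Kitl, the KIT ligand, had 32 and 31 counts over the groups. With no filter on low counts Csf3 was called higher (edgeR adjusted p = 0.00177) and Csf2, Il5 and Kitl were not (adjusted p = 0.831, 0.460 and 0.924). Flt3l alone passed the filter, with Mac and E-Mac levels of 23.2 ± 2.38 and 23.4 ± 4.17 CPM (SD, n = 4 and 4), and did not pass (0.01 ± 0.13, edgeR adjusted p = 0.939). It was higher or lower in E-Mac depending on the scaling, at -0.13 by library totals and -0.15 without E-Mac 2 and 4. Epor, the erythropoietin receptor gene, did not pass the filter, with 26 counts in Mac and 2 in E-Mac.

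Downstream of the receptors 57 of 82 tested pathway genes were called (69.5%, against 58.3% of all tested genes), 33 higher and 24 lower. With E-Mac 2 and 4 left out 33 were higher and 34 lower, among them 9 adaptors in place of 6 and 7 transcription factors in place of 5. Calls over all genes rose there too, to 4350 higher and 4146 lower of 14128 tested, from 3954 and 3860 of 13412. Among kinases and STATs 3 of 13 rose and 5 fell, with a median log2 fold change of 0.00. Jak2, the kinase bound to the beta chain, rose (0.75 ± 0.06, 167 to 281 CPM), and the related kinase gene Tyk2 fell (-0.58 ± 0.07). The STAT5 genes themselves did not pass, Stat5a at 51.5 CPM in both groups and Stat5b at 228 and 209. Of 22 adaptors and signalling enzymes 8 rose and 6 fell. The docking proteins Gab1 (2.40 ± 0.21) and Dok2 (0.89 ± 0.08) rose, and Pik3r5, a regulatory subunit of PI3-kinase gamma, fell (-0.50 ± 0.06). The edgeR adjusted p of these 5 called genes was at most 2.09e-05, and each lay apart in all 4 libraries of a group.

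Genes that STAT5 is known to induce rose in 6 of 9 cases and fell in 0, where 29.5% of all tested genes were called higher and 28.8% lower. Their median log2 fold change was 1.03 against 0.00 over all tested genes. Socs2, a feedback inhibitor, had 2.17, 1.998, 2.21 and 2.28 CPM in Mac 1 to 4 and 25.1, 47.2, 34.1 and 66.6 CPM in E-Mac 1 to 4. The groups were far apart, and E-Mac 2 and 4 were again the highest, as for Csf2rb. Socs2 changed by 4.31 ± 0.32 (edgeR adjusted p = 1.36e-06) and by 3.77 without these libraries, the survival gene Bcl2l1 by 1.81 ± 0.15 and the cyclin gene Ccnd2 by 1.87 ± 0.08. The called genes did not share 1 order within E-Mac. Cish and Pim1 were also highest in E-Mac 2 and 4. Bcl2l1 (102.6, 91.2, 103.0 and 61.3 CPM in E-Mac 1 to 4) and Myc (38.6, 28.3, 44.7 and 34.4 CPM) were lowest there. Ccnd2 was lowest in E-Mac 2 and highest in E-Mac 4. Osm (-0.14 ± 0.14), Pim2 (0.17 ± 0.14) and Id1 (0.24 ± 0.11) did not pass. Other pathways also induce these genes. Socs2 and Cish also count among the negative regulators. Of 16 tested negative regulators 8 rose and 6 fell, among them the JAK inhibitor Socs1 (3.04 ± 0.12) and the kinase pathway inhibitor Spry2 (2.71 ± 0.21) upward and the ubiquitin ligase Cblb downward (-2.07 ± 0.09, 129.7 to 31.0 CPM). The largest edgeR adjusted p of these 3 was 2.01e-07.

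Genes associated with GM-CSF action moved both ways, 2 of 5 up and 2 down. Beside the counts of this and the next lists, 29.5% of all tested genes were called higher and 28.8% lower. The chemokine gene Ccl22 rose from 0.289 ± 0.0847 to 13.7 ± 4.41 CPM and the factor Bhlhe40 from 65.0 ± 6.90 to 277 ± 70.8, both highest in E-Mac 2 and 4, with log2 fold changes of 5.57 and 2.09 that were 5.13 and 1.76 without them. Irf4 fell (-2.39 ± 0.19) and so did Pparg (-0.38 ± 0.11, edgeR adjusted p = 0.00937), the lipid regulator that GM-CSF induces in alveolar macrophages. Itgax, which encodes CD11c, did not pass with all libraries (-0.31 ± 0.16, adjusted p = 0.130), but fell with E-Mac 4 left out (-0.44, edgeR adjusted p = 0.0341) or both E-Mac 2 and 4 (-0.68, adjusted p = 1.11e-08), and by library totals (-0.45, adjusted p = 0.0333). Ccl17 did not pass the filter. All 4 tested genes of receptor shedding rose: Adam17 (0.59 ± 0.06), the protease that cleaves CSF1R from the surface, its partner Rhbdf2 (0.82 ± 0.07), Adam10 (0.54 ± 0.07) and Furin (0.72 ± 0.07). Their edgeR adjusted p was at most 2.75e-05, but Adam17 and Adam10 lost their call against a fold of 1.5. The inhibitor Timp3, also a stromal product, had 0 counts in Mac and 83 over E-Mac, with 4, 49, 2 and 28 in E-Mac 1 to 4. Of 13 transcription factors known to act on the receptor genes 4 rose and 5 fell. Cebpa, which drives Csf3r in granulocyte precursors, fell from 150.2 ± 10.5 to 56.3 ± 6.25 CPM (-1.42 ± 0.09, edgeR adjusted p = 1.78e-08), and the progenitor factors Myb (-1.08 ± 0.13) and Gfi1 (-0.99 ± 0.10) fell as well. Spi1, which encodes PU.1, had Mac and E-Mac levels of 542 ± 23.5 and 603 ± 50.7 CPM and did not pass (0.15 ± 0.08, edgeR adjusted p = 0.0998).

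**Figure D5:**
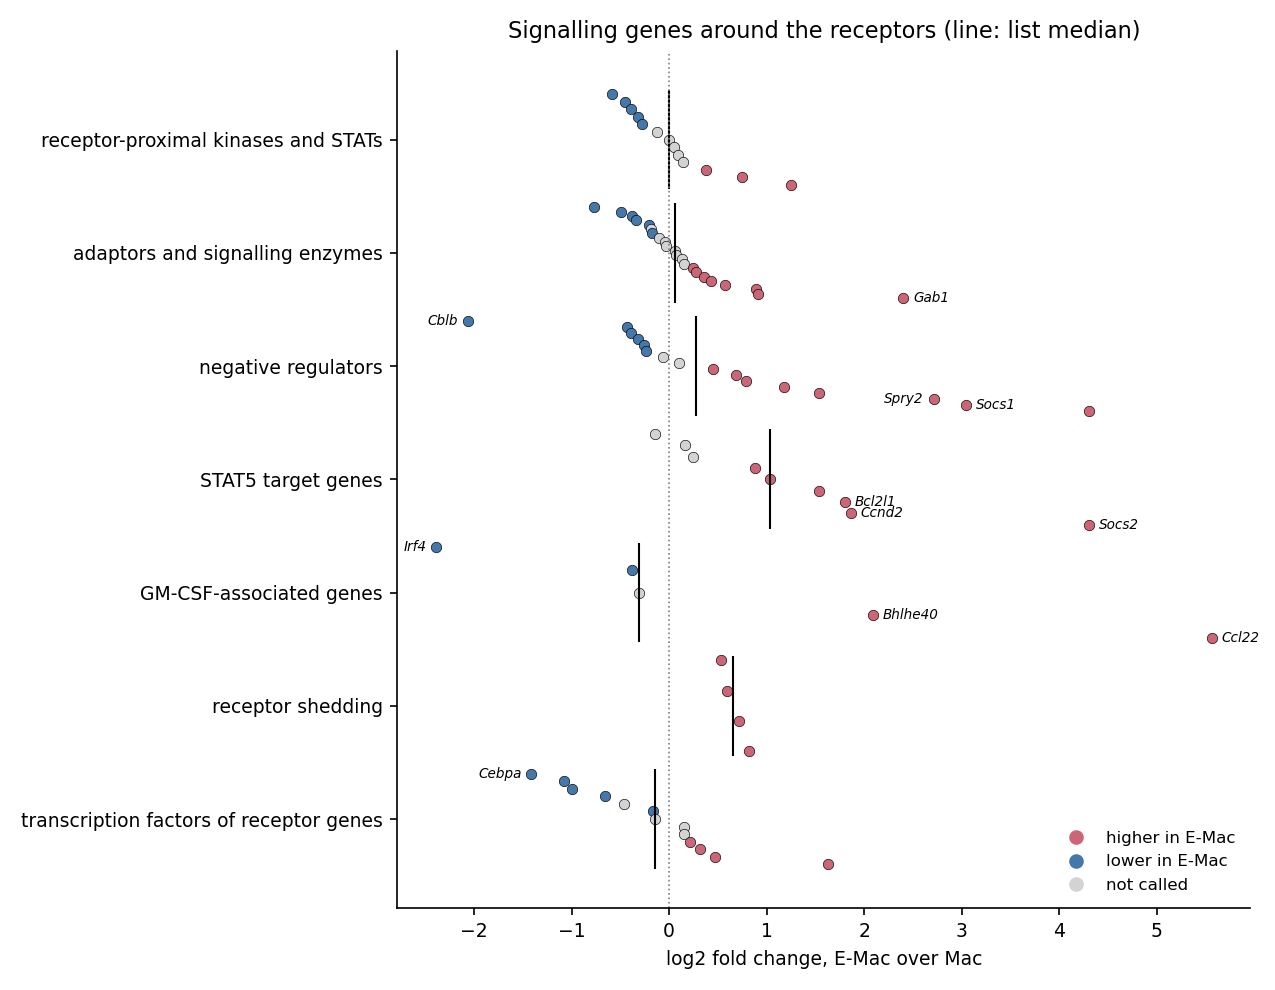
log2 fold change, E-Mac over Mac, of the tested genes of 7 pathway lists, 1 point per gene, coloured where called, with a line at each list's median. The STAT5 target genes and the shedding genes lie to the right, with medians of 1.03 and 0.65, and the other lists spread to both sides of 0.

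The transcripts whose profiles were most like those of 3 members were named by their Pearson correlation over 8 libraries among 8393 genes of at least 10 CPM. For Csf3r these were Akna (r = 0.995), Mical1 (0.993) and Kif2a (0.991), for Csf2ra Rnf170 (0.993), Prickle3 (0.987) and Sipa1 (0.986), and for Csf1r Tifa (0.965), Rab9 (0.942) and the complement gene C1qb (0.940). As deviations from the group means, Csf1r was most like Lgmn (0.993), Lgals3bp (0.990) and Anxa4 (0.990), Csf3r most like Polg2, Oasl2 and Tbc1d8 (0.996 to 0.997) and Csf2ra most like Cldn1, Fmr1 and Slfn1 (0.972 to 0.980). The points share the group and the split of the E-Mac libraries, so such values describe these libraries only.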

How the data were processed

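Raw counts of 8 libraries, by gene symbol, stand in a single table that the authors deposited. The tools, per the submitters' processing notes, include HISAT2 for alignment and featureCounts of Subread, beside bcl2fastq and DESeq2, with mm10 as the build and no versions. The sources used here do not give the annotation, the strand setting or the treatment of reads with several matches. Of 53673 names 26 had the form of dates, held 0.133 to 0.160% of the counts and were left out. The test of every gene was that of edgeR 4.0.16 under R 4.3.3 (filterByExpr with minimum count 10 and total 15, TMM, robust quasi-likelihood fit of the group, Benjamini-Hochberg over 13412 genes), the standard error being the log2 fold change over the square root of F. The script was tested on simulated data. CPM used the tested genes' total times the TMM factor. Intervals are 1.96 standard errors on each side. Ratios of 2 genes (0.5 added to counts) were put to the exact permutation test, two-sided, of scipy 1.17.1. Exon lengths and coordinates came from GENCODE M21 on mm10, promoters from RefSeq, and coding sequences were aligned with Biopython 1.88. The members and lists were chosen with earlier results of these data known. All members were named, with the 3 genes of smallest adjusted p in every pathway list, all genes of lists of 8 or fewer, the 2 most abundant markers of each list with those at 0, and the 3 most similar profiles; not every one is reported here. Stat5a, Stat5b, Osm, Pim1, Pim2, Id1, Cish, Myc, Spi1 and the markers outside this rule were named after their values were seen. Alternatives were other scaling factors, filters and thresholds, DESeq2 1.42.0, limma-voom (limma 3.58.1), a replicate block, a fit without the robust option, a test against a fold of 1.5, other offsets for ratios, and libraries left out.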

Additional observations from a re-analysis of the deposited data

Results flagged for a closer look

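In 4 of 93 groups of 4 libraries examined, 1 library lay far from the other 3, about the 5% that chance gives. All 4 concern a few counts. Ccl22 was 0.416 CPM in Mac 2 against 0.246 to 0.248 in the other Mac libraries. Csf2 was 0.248 CPM in Mac 1, Epor 0.138 CPM in E-Mac 2 and Il5 0.0673 CPM in E-Mac 3, each with 0 counts in the other 3 libraries of its group. None of the 9 members was among them.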

How the results depend on the processing

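Csf1, Csf2rb, Csf2rb2, Flt3 and Kit kept their direction and call under all 20 alternatives. The number of members called lower, 4, was 2 with no filter on low counts, with the replicate block, against a fold of 1.5 and at an adjusted p under 0.01, and 2 to 4 with 1 library left out, since Csf2ra and Csf3r lost their call; the cause was not tested. With no filter their adjusted p was 0.142 and 0.0631, with the block 0.0625 and 0.0574, and with RLE factors that of Csf3r was 0.0507. Same-numbered libraries did not deviate together (r = -0.127 to 0.051), and 1 of the 4 E-Mac libraries correlated best with its own number. With 4 libraries a group and the split within E-Mac, these values cannot show whether the numbers pair the samples. The replicate block gave 7458 calls over all genes against 7814. Against a fold of 1.5 the calls were 2968 over all genes (1490 higher, 1478 lower) and 19 higher and 5 lower among pathway genes. Adam10, Adam17, Pik3r5, Pparg and Tyk2 were among the genes that lost their call there. Scaling by library totals only gave 2996 higher and 5018 lower, against 3954 and 3860. Uncalled genes changed sign: Csf1r (-0.042) and Il3ra (-0.054) with upper-quartile factors and at -0.087 and -0.10 with library totals, Flt3l (-0.081 and -0.13 under these, -0.024 with at least 10 CPM in 4 libraries, -0.11 to 0.075 with 1 library left out, negative without Mac 4 or E-Mac 4, -0.15 without E-Mac 2 and 4) and Il5ra (-0.0014 with library totals, -0.073 to 0.28 with 1 library left out, negative without E-Mac 4, -0.27 without E-Mac 2 and 4). The ratio differences kept their sign: with 1 library left out they were -0.81 to -0.79 for Csf2rb to Csf2rb2, -1.85 to -1.69 for Csf2ra to Csf2rb 1.89 to 2.33 for Csf1 to Csf1r, -0.52 to -0.24 for Csf3r to Csf1r and -0.31 to -0.17 for Csf2ra to Csf1r, and without E-Mac 2 and 4, in this order, -0.81, -1.63, 1.63, -0.71 and -0.39. Their tests cannot pass there, since the smallest exact p is 0.0571 and 0.133; in a sign-flip test over same-numbered pairs (replicate block) it is 0.125, with differences of -0.80, -1.80 and 2.13 for the first 3. Among ligand genes other than Flt3l, with 0 to 32 counts a group, Csf3 was called higher with no filter on low counts and was not tested otherwise.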
